A study of Drosophila melanogaster with 3 samples.

Results

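The genes described here are 9 Drosophila melanogaster genes that license replication origins or act at the replication fork: Orc1 and Orc2 of the origin recognition complex, the helicase genes Mcm2, Mcm3, dpa, Mcm5, Mcm6 and Mcm7, and PCNA. They were taken by name, and each name matched 1 gene among 13945 protein-coding genes of the main chromosome arms in the Ensembl annotation of the dm6 assembly. Binding of Su(H), fused at its C-terminus to GFP, was measured by sequencing of immunoprecipitated chromatin (ChIP-seq) in a stable transgenic line. The material was pooled male and female whole embryos aged 0 to 24 h, in 3 biological replicates, and chromatin was sonicated to 200 to 800 bp. Per the labels the antibody was against GFP, although 1 label field names Su(H) as the antibody target. All libraries belong to this 1 group, so there is no contrast between conditions and no p-value. Whole embryos of a full day of development mix stages, tissues and dividing and non-dividing cells, and the lists cannot say in which of these a peak arose.

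The origin recognition complex marks replication origins and, with Cdc6 and the Cdt1 protein encoded by dup, loads the ring of MCM proteins, the helicase that later unwinds DNA at the fork. PCNA is the sliding clamp that holds DNA polymerases on their template. In flies many genes of this machinery are transcribed under E2F with its partner Dp, and under DREF, a factor that binds the letters TATCGATA and was first described at the PCNA promoter. Su(H) binds DNA and carries the signal of the Notch receptor to its target genes.

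The deposited lists hold, for each peak, a summit and a signal value. The signal is the authors' own, its scaling is not stated and the read depth is unknown, so the values were used to rank and describe peaks. The 3 replicate lists and the pooled list each held 30000 peaks and contain background by design. The thresholded list, which the authors made by the irreproducible discovery rate from replicate agreement, held 3833 peaks, and these were the 3833 strongest of the pooled list. A summit within 500 bp of an annotated transcript start was counted as a promoter summit. In the thresholded list, 3 of the 9 genes (Orc1, dpa and Mcm5) had a promoter summit, against 19.4% of all protein-coding genes. Counting summits in the gene or within 2 kb, 5 of the 9 did, against 33.0% of all protein-coding genes. The further 2 genes were Mcm3 and PCNA, and in both the summit lay at the start of a neighbouring gene. Both counts rest on 9 genes only, and they were not tested against the shares over all genes.

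Short stretches of the reference genome (dm6, RefSeq) are shown first, because the results below turn on which letters lie at the starts and which at the summits. Capitals mark a form of the E2F site, searched on both strands as TTTCCCGC, TTTGGCGC, TTTCGCGC and TTTGCCGC. Such a form lay between 250 bases before and 50 bases after the RefSeq start of 5 of the 9 genes (Orc1, Mcm2, Mcm3, Mcm5 and Mcm6), against 6.44% of 13921 protein-coding promoters. For dpa this window covers only the outer of its 2 annotated starts. The lines below give 30 bases of the plus strand, which is the coding strand of all 3 genes, at chr3R:8264995-8265024 for Mcm2, chr3R:10788545-10788574 for Mcm5 and chrX:6674389-6674418 for Mcm6, each within the 5' untranslated region. The match centres lay 40, 36 and 17 bp downstream of the start of Mcm2, Mcm5 and Mcm6.
Mcm2: ttagcaaacatTTTCCCGCgcattttcgca
Mcm5: cggtaattttgGCGGCAAAatattcgcaca
Mcm6: gtcagaaaaagGCGCCAAAaccgagcaaag
Mcm2 reads in the forward sense and Mcm5 and Mcm6 carry the reverse complement. A match of letters is a description and does not show that a factor binds there.

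The next lines set the start of Mcm3, which had no summit within 500 bp in any list, beside the strongest peak within 2 kb of the gene. The first line is chrX:5323755-5323864, plus strand, from 100 bases before the Mcm3 start to shortly after it. Capitals mark the Motif 1 core GGTCACAC, a core promoter element of many fly genes, and then an E2F form, centred 16 and 2 bp upstream of the start. The second line is chrX:5322697-5322852, plus strand, the intergenic DNA upstream of Rnp4F, a neighbour transcribed from the minus strand. Here capitals mark the Motif 1 core, read on the minus strand, and then the DREF letters TATCGATA, whose centre lies 6 bp from the summit of the thresholded peak.
Mcm3 start: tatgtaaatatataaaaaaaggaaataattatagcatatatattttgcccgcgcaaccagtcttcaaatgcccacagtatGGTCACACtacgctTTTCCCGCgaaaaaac
Rnp4F upstream: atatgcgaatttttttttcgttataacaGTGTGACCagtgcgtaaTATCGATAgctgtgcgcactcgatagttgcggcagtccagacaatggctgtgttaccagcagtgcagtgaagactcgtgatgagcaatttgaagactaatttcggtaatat
The summit thus lay on the Rnp4F side of the interval, 56 bp from the Rnp4F start and 1103 bp upstream of the Mcm3 start.

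Orc2 carried the DREF letters on each side of its start, centred 197 bp upstream and 21 bp downstream, at chr3R:13964673-13964702 and chr3R:13964891-13964920 on the plus strand, shown with the letters in capitals.
Orc2 upstream: taatttaaattTATCGATAacgtatgcaat
Orc2 downstream: catgtcttagtTATCGATAattcccgccac
The last sequence is the whole interval between the divergent starts of Art1 and Mcm5, chr3R:10788227-10788523, plus strand, shown because it holds the thresholded summit of Mcm5. Capitals mark 11 bases centred on that summit.
Art1 to Mcm5: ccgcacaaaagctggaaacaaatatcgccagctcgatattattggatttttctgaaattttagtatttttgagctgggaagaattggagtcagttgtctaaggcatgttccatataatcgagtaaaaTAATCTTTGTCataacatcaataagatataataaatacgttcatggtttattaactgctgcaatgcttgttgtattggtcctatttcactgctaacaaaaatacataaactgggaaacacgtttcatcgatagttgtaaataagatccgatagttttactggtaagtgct
None of the motifs searched lay within 100 bp of this summit. A weaker pooled summit, of signal 35.6 and rank 22792, lay 36 bp downstream of the Mcm5 start, at the E2F form printed above. That form was also within 100 bp of the replicate 3 summit.

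Both genes of the origin recognition complex had promoter summits in the pooled list, but of very different strength. Orc1, which encodes the largest subunit and an ATPase of the complex, had a thresholded summit 26 bp upstream of its start in intergenic DNA (chr2R:7525534-7525949). Its pooled signal was 149.0, rank 2170 of 30000, and its signal in replicates 1, 2 and 3 was 35.2, 55.0 and 66.2. The replicate ranks were 4367, 1961 and 1432, so Orc1 was high in replicates 2 and 3 and lower in replicate 1. The matched replicate summits lay 34 and 46 bp upstream and 2 bp downstream of the start, within 48 bp of each other. Replicate 1 also listed a summit of signal 25.3, 223 bp downstream of the start. Another of signal 35.4 lay in a Drat coding exon, 1911 bp upstream of the Orc1 start. The nearest start of another protein-coding gene, Drat, was 3574 bp from the Orc1 start.

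Orc2, which encodes another subunit of the same complex, had a pooled signal of only 51.1, rank 12120, with a summit 215 bp downstream of its start in a coding exon (chr3R:13964892-13965307). The signal was 19.1 in replicate 2 and 16.0 in replicate 3. The summit of replicate 1 lay elsewhere, 274 bp upstream of the start, with a signal of 18.4. These values sit near the median signal of the replicate lists, which was 20.3, 16.8 and 17.7 in replicates 1, 2 and 3. The summits of replicates 2 and 3 matched the pooled summit within 200 bp, and that of replicate 1 did not. Neither of the DREF elements shown above for Orc2 lay within 100 bp of its pooled summit. Each lay within 100 bp of a replicate summit, however. The upstream element was near that of replicate 1, and the downstream element near that of replicate 2, 93 bp downstream of the start.

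Among the 6 genes of the MCM helicase, dpa, which encodes Mcm4, stood apart. Its pooled signal was 442.2, rank 268 of 30000 (chr2R:7499855-7500126). This placed dpa at 223 among the 7593 genes with a pooled promoter summit. The signal was 138.3, 128.9 and 181.2 in replicates 1, 2 and 3, with ranks of 322, 379 and 180. All 3 values were far above the medians of their lists, and −log10 q was at the maximum of its list in each replicate (3.47, 3.88 and 3.81). That maximum was shared by 1486, 3804 and 3199 peaks of replicates 1, 2 and 3, so it does not set dpa apart.

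The dpa peak lay between the 2 annotated starts of the gene, in its 5' untranslated region, 99 bp upstream of the start nearer to the coding sequence. The outer start of dpa lies 2 bp from a start of didum, a myosin gene on the opposite strand, and the nearest didum start was 171 bp from the summit. The peak therefore cannot be given to dpa alone. A weaker pooled summit, of signal 69.0 and rank 7358, lay 30 bp upstream of the outer dpa start and 28 bp from a didum start. Downstream of the gene a second thresholded peak (chr2R:7496118-7496533) had a pooled signal of 177.4 and lay 21 bp from the start of CG1620. Its signal of 58.5 ± 6.72 (SD, n = 3) was below that of the promoter peak in all 3 replicates.

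Mcm5 had a thresholded summit in the interval printed above (chr3R:10788151-10788566), 165 bp upstream of its start and 133 bp from the start of Art1, which encodes an arginine methyltransferase. Its pooled signal was 165.3, rank 1818, and its signal was 58.9, 36.2 and 50.4 in replicates 1, 2 and 3. Replicate summits were spread over 162 bp, from 199 bp upstream of the Mcm5 start in replicate 1 to 37 bp upstream in replicate 3. All of them lay between the starts of Art1 and Mcm5, which are 298 bp apart, so the peak belongs to both genes by the 500 bp rule.

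Mcm2 fell just outside the thresholded list. Its pooled signal of 100.1 gave rank 4199, which is 366 places below the threshold, whose weakest peak had a signal of 105.7. The summit lay 23 bp upstream of the start in intergenic DNA (chr3R:8264739-8265154). The signal was 44.3, 40.3 and 30.2 in replicates 1, 2 and 3, and the ranks were 2823, 3460 and 5758. Mcm2 was thus among the 3833 strongest peaks in replicates 1 and 2 and not in replicate 3, where the summit also lay further into the gene, 162 bp downstream of the start. A second pooled summit, of signal 87.9 and rank 5070, lay 176 bp downstream of the start in a coding exon. The pooled summit was also 496 bp from the start of RPA1, which encodes the large subunit of the single-strand binding protein and is transcribed in the other direction.

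Mcm7 had a weak pooled summit 304 bp upstream of its start (chr3L:8891084-8891499), with a signal of 52.1 and rank 11709. Its signal was 27.8 in replicate 1, 14.2 in replicate 2 and 13.4 in replicate 3. The value in replicate 1 was above the median of that list, and those in replicates 2 and 3 were below theirs.

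Mcm3 and Mcm6 had no promoter summit in any of the lists. The peak counted for Mcm3 within 2 kb was the one at the Rnp4F start (chrX:5322544-5322959), with a pooled signal of 212.1, rank 1182, and 92.3, 50.8 and 61.5 in replicates 1, 2 and 3. Rnp4F encodes an RNA-binding protein of the splicing machinery. For Mcm6 the strongest pooled summit within 2 kb lay beyond the 3' end of the gene, 19 bp from the start of ND-ASHI, which encodes a subunit of mitochondrial complex I (chrX:6678033-6678448). It had a pooled signal of 77.2 and rank 6143, was not in the thresholded list, and had no match in replicate 3. Within Mcm6 itself, a coding-exon summit 614 bp downstream of the start had a pooled signal of 56.9, and 17.3, 17.8 and 29.4 in replicates 1, 2 and 3.

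PCNA, the clamp, had no promoter summit in the thresholded or pooled list. Weak summits were listed within 500 bp of its start in 2 of 3 replicates. In replicate 1 they lay 354 and 8 bp upstream, with signals of 18.8 and 16.3, both below the median of that list. In replicate 3 the summit lay 462 bp upstream with a signal of 13.2, again below its median. This lay within 200 bp of the first summit of replicate 1, and replicate 2 had no summit within 500 bp of the PCNA start. The DREF letters lay 24 bp upstream of the outer PCNA start, and neither the thresholded nor the pooled list had a summit within 500 bp of a start of that gene.

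The thresholded peak within 2 kb of PCNA (chr2R:20263750-20264165) was 1075 bp upstream of the PCNA start and 21 bp from the start of RpS18, a ribosomal protein gene. A start of plu, a gene that restrains DNA synthesis in unfertilized eggs, was 274 bp from it. Its pooled signal was 160.0, rank 1920, and its signal was 41.7, 65.7 and 59.9 in replicates 1, 2 and 3. All replicate summits of this peak lay within 42 bp of each other.

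**Figure D1:**
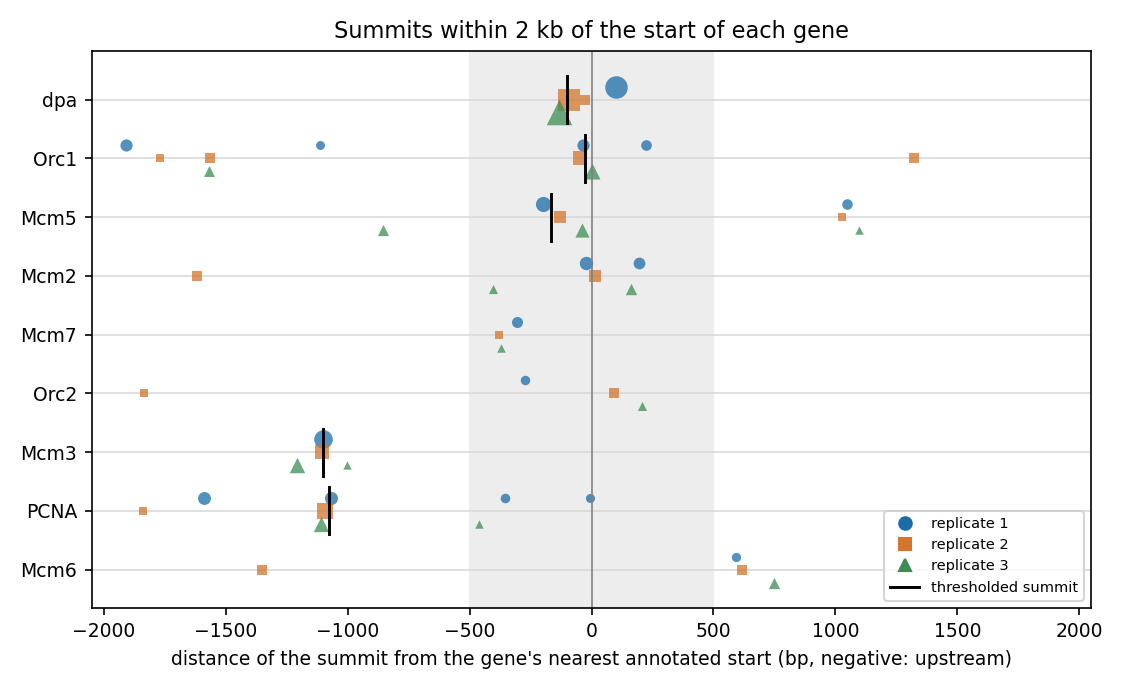
Distance of replicate summits from the nearest annotated start of their gene (bp, negative is upstream), with 1 line per gene. Only summits within 2 kb of a start are shown. Distances for dpa are to the nearer of its 2 starts, so its main replicate summits, which span 75 bp, appear on both sides of the centre. Marker area grows with the deposited signal, shading marks 500 bp to both sides of the start and black bars mark thresholded summits. The thresholded summits of dpa, Orc1 and Mcm5 lie in the shaded part, and those near Mcm3 and PCNA lie 1103 and 1075 bp upstream.

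Beyond these sites, the pooled list held 16 further summits in or within 2 kb of 6 of the 9 genes. The CG1620 peak near dpa was the 1 thresholded peak among them. The remaining 15 had pooled signals from 31.0 to 87.9, and 6 of them had a matching summit in all 3 replicate lists. For 2 of these 6, the further summits at the starts of Mcm2 and dpa, some or all of the matched replicate summits were those already given for the main peak, which leaves 4 with summits of their own.

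The replicates separated dpa from the other genes, and Mcm2 from Mcm7, and no other neighbours in the order. Over the matched replicate peaks of the genes with a pooled promoter summit, dpa averaged 149.5 ± 27.9 (SD, n = 3), Orc1 52.1 ± 15.7, Mcm5 48.5 ± 11.5, Mcm2 38.3 ± 7.23 and Mcm7 18.4 ± 8.11. Orc2 averaged 17.6 ± 2.16 over the 2 replicates with a matching summit. For Mcm2 the replicate 3 value came from a summit close to its second pooled summit. With a 100 bp match, or without replicate 3, the Mcm2 mean was 42.3 ± 2.84. The gap of 97.4 between dpa and Orc1 exceeded the larger SD of 27.9, and dpa was higher in all 3 replicates with no overlap. Orc1, Mcm5 and Mcm2 followed each other by gaps of 3.62 and 10.2, smaller than the larger SD of each pair, and their replicate values overlapped. The gap of 19.8 from Mcm2 to Mcm7 exceeded the larger SD of 8.11, with no overlap. Mcm7 and Orc2 differed by 0.880 in mean, and their values overlapped. Mcm7 was the lower of the pair in replicates 2 and 3, and its higher mean came from replicate 1, where Orc2 had no matching summit.

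**Figure D2:**
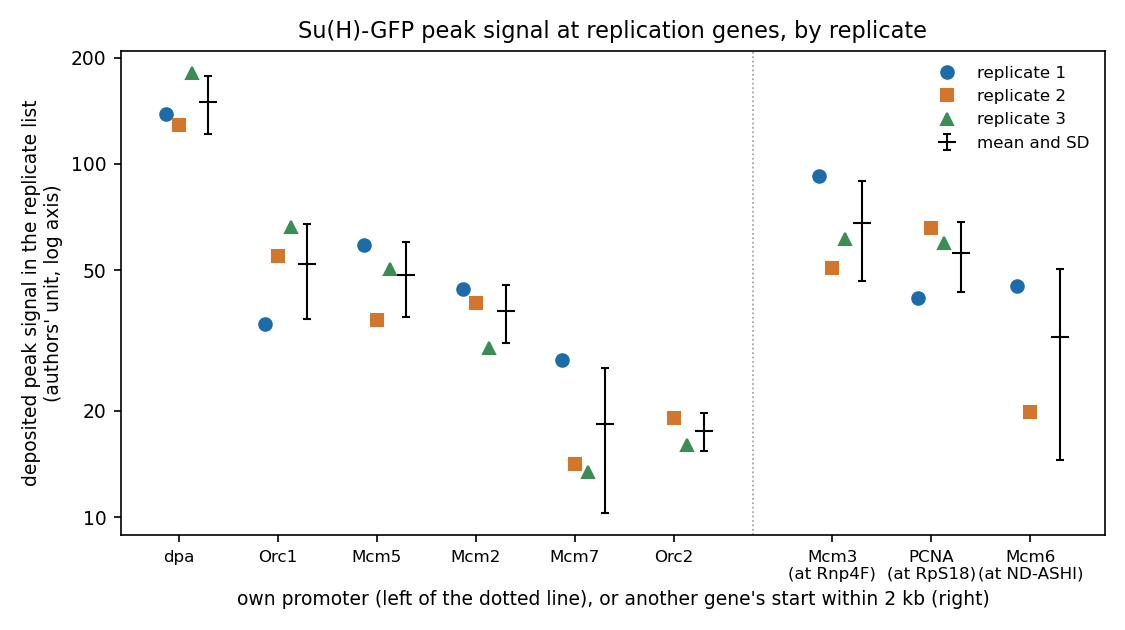
Deposited peak signal (authors' unit, log axis) at each gene in the 3 replicate lists, with the mean and SD over the matched replicates to the right of the points. Genes with a pooled promoter summit stand left of the dotted line, and the peaks at neighbouring starts counted for Mcm3, PCNA and Mcm6 stand right of it. The dpa points, from 128.9 to 181.2, lie above every other point.

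The longer pooled and replicate lists, which contain background, named more of the genes than the thresholded list. The thresholded list is a part of the pooled list, which therefore could not name fewer. A pooled promoter summit was listed for 6 of the 9 genes, against 54.4% of all protein-coding genes. Promoter summits in all 3 replicate lists were found for the same 6 genes (Orc1, Orc2, Mcm2, dpa, Mcm5 and Mcm7), against 37.5% of all protein-coding genes. Taken alone, replicates 1, 2 and 3 listed a promoter summit for 7, 6 and 7 of the 9 genes, PCNA being the seventh in replicates 1 and 3. Among the 3833 strongest peaks of each replicate, only dpa had a promoter summit in all 3 lists. Orc1, Mcm2 and Mcm5 had one in 2 of them and the remaining 5 genes in none. No share over all genes is given for the single replicates or for these strongest peaks, so those counts are descriptions only. In order of pooled promoter signal among the 7593 genes with such a summit, Mcm5 came at 1425, Orc1 at 1676, Mcm2 at 2915, Mcm7 at 5435 and Orc2 at 5509. The median pooled promoter signal was 124.5 over the 6 genes and 78.1 over all 7593.

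**Figure D3:**
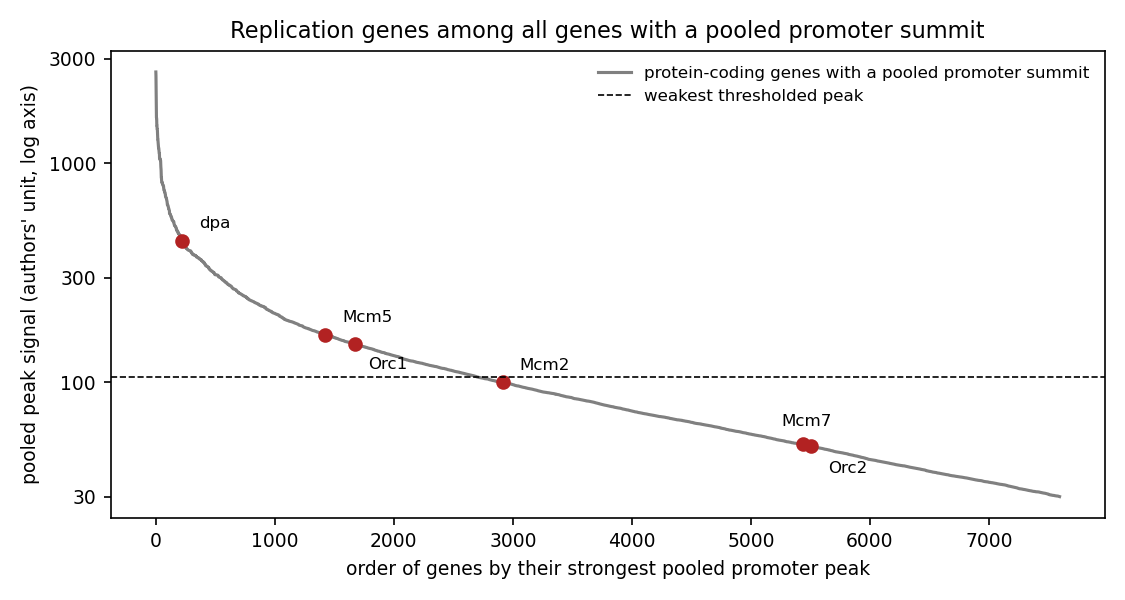
Pooled signal (authors' unit, log axis) of the strongest promoter peak of each of 7593 protein-coding genes, in descending order (grey line), with the 6 replication genes that have one in red. The dashed line is the weakest thresholded peak, at 105.7: dpa, Mcm5 and Orc1 lie above it, Mcm2 just below it, and Mcm7 and Orc2 well below.

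Some of the 9 genes share a promoter region with a neighbour. Another protein-coding start on the opposite strand, upstream and within 500 bp, was annotated for 3 of the 9 (dpa, Mcm5 and Mcm6), against 27.4% of all protein-coding genes. Within 1000 bp the count was 5 of 9, with Orc2 and Mcm2 added, against 36.2%. Of the 3 genes with a thresholded promoter summit, dpa and Mcm5 had such a partner within 500 bp, and Orc1 did not. Mcm6 had one, CG3198, 414 bp away, and no promoter summit.

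Motif letters were compared between the summits of the 9 genes and those of all thresholded promoter peaks, in windows of 100 bp to each side and on both strands. For each gene the strongest pooled promoter summit was searched, and its weaker pooled summits and replicate summits were not. For genes without a pooled promoter summit, the strongest pooled summit in the gene or within 2 kb was used. The compared sets are therefore unlike. The summits of Orc2, Mcm2, Mcm6 and Mcm7 were not in the thresholded list, and those of Mcm3, Mcm6 and PCNA were not at their own promoters. No Su(H) site of the forms CGTGAGAA, CGTGGGAA, TGTGAGAA and TGTGGGAA lay in any of the 9 windows, against 3.44% of 2269 thresholded promoter summits. The form TGTGAGAA lay 50 bp upstream of the outer dpa start, 219 bp from the main pooled summit. It was within 100 bp of the weaker pooled dpa summit, of signal 69.0, which lay 30 bp upstream of the same start. Over whole promoter windows, 250 bases before to 50 after the RefSeq start, a Su(H) form was found at 1 of 9 genes, against 3.19% of 13921 promoters.

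An E2F form lay at the summit of 3 genes (Orc1, Mcm2 and dpa), against 4.41% of all thresholded promoter summits. At dpa there were 2, TTTGGCGC with its centre 15 bp from the summit and TTTCCCGC 96 bp from it. The second lay 3 bp upstream of the inner dpa start. At Orc1 the centre of TTTGGCGC lay 32 bp from the summit and 6 bp downstream of the start. At Mcm2 the match printed above lay 63 bp from the summit. With 9 windows, these counts are descriptions and no share was tested.

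The DREF letters lay at 2 of the 9 summits, against 8.81% of thresholded promoter summits, and both were at the starts of other genes: the Rnp4F peak counted for Mcm3 and the ND-ASHI peak counted for Mcm6. None of the 6 pooled promoter summits held them within 100 bp. With 200 bp to each side the count was 3 of 9, as 1 match of Orc2 lay 194 bp from its pooled summit. No share over all summits is given at that width. In the promoter windows the DREF letters were found at Orc2 and PCNA, 2 of 9, against 9.37% of promoters. The Motif 1 core lay at the Rnp4F summit, against 6.35% of thresholded promoter summits, and in the promoter window of Mcm3, against 7.71% of promoters. GAGAG, the letters bound by GAGA factor, lay at none of the 9 summits, against 24.9% of thresholded promoter summits. It lay in the promoter windows of Orc2 and PCNA, against 29.8% of promoters.

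Further genes of the replication machinery were read from a list of 59 other genes. That list was written with earlier results of these data known. A thresholded promoter summit was present at 21 of the 59 genes, or 35.6%, against 19.4% of all protein-coding genes. A thresholded summit in the gene or within 2 kb was present at 26, or 44.1%, against 33.0%. Promoter summits in all 3 replicate lists were present at 39, or 66.1%, against 37.5%. Neighbouring genes can share a peak, as RPA1 of this list shares that of Mcm2, and no test of these shares was made. The median pooled promoter signal was 99.2 over the 48 genes of the list that had one.

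Of 7 further licensing genes, dup was the only one with a thresholded promoter summit, and it was among the strongest. Its signal was 104.8, 126.0 and 130.4 in replicates 1, 2 and 3, with a pooled signal of 367.1, rank 427. The summit lay 84 bp from the dup start and 26 bp from the start of SRPK, a splicing kinase gene, so it too sits at a pair of starts. The other ORC genes Orc3, Orc4 and Orc5 had pooled promoter signals of 76.7, 88.8 and 63.0, all under the threshold, and Orc6 had no pooled promoter summit.

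Among 12 origin-firing genes, 4 had a thresholded promoter summit. They were the GINS genes Psf1 and Sld5, with pooled signals of 151.7 and 121.4, Cdc7, the kinase that triggers the MCM helicase, with 118.0, and its activator chif, with 139.7. The signal of chif was 76.4 in replicate 1 and 31.5 and 34.1 in replicates 2 and 3, so it was highest in replicate 1. Among 11 polymerase and primase genes there were 5, of which the strongest were Prim1, the primase, with 166.0, the histone-fold gene Chrac-14 with 146.2, the polymerase delta gene PolD2 with 144.2 and the polymerase alpha gene PolA1 with 140.2. Cdc7 and chif each had a stronger summit in an intron beyond the promoter, with pooled signals of 265.3 (rank 776) and 589.7 (rank 131), that of chif 986 bp upstream of the nearest chif start. PolA1 held 2 DREF matches within 100 bp of its summit. Psf3, Cdk2, PolA2, PolE4, DNAlig1, Top2 and dUTPase of the whole list held 1 each at their strongest pooled promoter summit. The remaining genes of the list with such a summit held none. Not all of these summits were thresholded, whereas the share of 8.81% is over thresholded promoter summits.

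Among 12 genes for the clamp loader, the single-strand binding protein, Okazaki fragment processing and topoisomerases there were 4. Top1, a topoisomerase that relieves the twist ahead of forks and of transcription, had 125.2, 148.7 and 197.7 in replicates 1, 2 and 3, values that overlapped those of dpa. Its pooled signal of 473.1, rank 233, was the highest among the promoter summits of the 59 genes. Top2, a second topoisomerase, had a pooled signal of 142.9, and the clamp loader genes RfC38 and CG8142 had 115.6 and 110.1. RfC3, another clamp loader gene, had no pooled summit in the gene or within 2 kb.

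Among 8 fork protection and chromatin assembly genes 4 had a thresholded promoter summit: Ctf4, which ties the helicase to polymerase alpha, with a pooled signal of 161.9, the checkpoint gene Claspin with 137.0, and the histone chaperone genes asf1 and Caf1-55 with 133.7 and 109.0. Claspin was even between replicates, at 42.9 ± 1.51 (SD, n = 3), while asf1 had 57.8, 16.7 and 50.7 in replicates 1, 2 and 3 and was low in replicate 2. A far stronger pooled peak within 2 kb of Caf1-55, of signal 1432.8 and rank 17, lay 113 bp from the start of a neighbour, with starts of Art3 and mRpS10 near it. Of 4 nucleotide supply genes RnrS, the small subunit of ribonucleotide reductase, had one, with a pooled signal of 189.8.

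Of 5 regulators of S phase genes, Dp and Dref had a thresholded promoter summit, and both were strong. Dp, the partner of E2F, had 110.2, 120.7 and 183.2 in replicates 1, 2 and 3, with a pooled signal of 405.1 and rank 326. Dref, the gene of the factor DREF, had 128.6, 125.8 and 142.2, with a pooled signal of 383.6 and rank 381. The Dref summit lay 8 bp from its own start and 92 bp from that of RpL13, a ribosomal protein gene. E2f1, E2f2 and Rbf had pooled promoter signals of 81.8, 86.4 and 87.6, all under the threshold. E2f1 and E2f2 had thresholded summits within 2 kb, 62 bp from the start of InR and 40 bp from the nearer of the starts of Coq3 and Pld3.

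**Figure D4:**
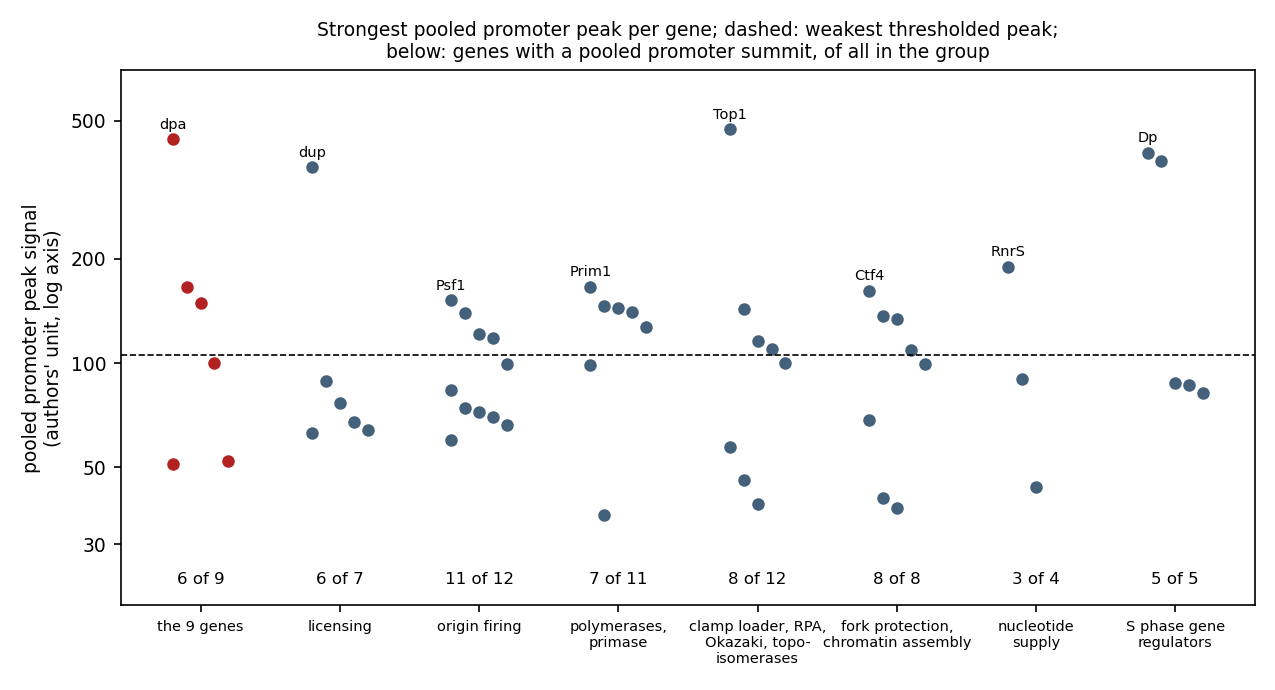
Pooled signal (authors' unit, log axis) of the strongest promoter peak of each gene, for the 9 genes (red) and for the 7 role groups of the list of 59 (blue), with the strongest gene of each group named. The dashed line is the weakest thresholded peak at 105.7, and the counts give the genes with a pooled promoter summit, of all in the group. Top1, dpa, Dp, Dref and dup lie between 367.1 and 473.1, and the next gene is RnrS at 189.8.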

How the data were processed

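Lists of ChIP-seq peaks from 3 biological replicates of Su(H)-GFP embryos were used, numbered as in the labels. Nothing pairs these samples further, and the design holds 1 group. Per the deposited file records, a replicate list derives from 1 library and a control file, the pooled list from all 3 libraries and a control file, and the thresholded list from these by irreproducible discovery rate. The aligner, the caller and the threshold were not given in the sources used here. Peaks carry a signal, deposited by the authors, whose scaling is unstated, and the deposited −log10 q value was tied at its maximum in 3569 thresholded peaks. Depth is unknown, so no counting interval was derived. Control libraries and the lists on the older assembly dm3 were not used here.

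Genes came from Ensembl release 115 (BDGP 6.54), and sequence and RefSeq starts from the same dm6 assembly. No peak reached beyond a chromosome end. Of the 59 further replication genes, 1 was matched by a RefSeq synonym. A replicate peak matched a site when its summit lay within 200 bp, the strongest such peak being taken. No test was run: counts stand beside shares over all protein-coding genes. Scripts used Python 3.11.15, NumPy 2.4.6, pandas 2.3.3 and matplotlib 3.10.9, and were tested on simulated data with planted summits and motifs.

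Named genes were the 9, other genes starting within 500 bp of their promoter summits (RPA1, didum and Art1), and up to 4 genes of each role group with the strongest thresholded promoter summit. Other names, such as Rnp4F, RpS18, ND-ASHI, CG1620, Orc3 and RfC3, were added after their values were seen. The genes and lists were chosen with earlier results of these data known.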

Additional observations from a re-analysis of the deposited data

How the results depend on the processing

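Counts moved most with the strictness of the list. With the 1000 strongest thresholded peaks alone, 1 of the 9 genes kept a promoter summit and 1 a summit in the gene or within 2 kb, and 4 and 7 of the 59 further genes did. With the whole pooled list these counts were 6, 9, 48 and 58. Within the gene body alone, 1 of the 9 and 12 of the 59 had a thresholded summit. Over all protein-coding genes, 54.4% had a pooled promoter summit. No share over all genes is given at the other settings here, so these counts only describe how far the results depend on the setting. In an alternative chosen after seeing the data, 3 of the 9 remained within 2 kb when peaks at the start of another gene only were not counted. Of the genes with a promoter summit in all 3 replicate lists, 1 remained when only the 3833 strongest peaks of each replicate were used. In the other alternative chosen after seeing the data, DREF letters lay within 100 bp of 0 of the 6 pooled promoter summits. The count was 2 of 9 when neighbouring starts were counted, and 3 of 9 with 200 bp to each side. The thresholded list was made from all 3 libraries and could not be remade without one. Its counts were 3, 5, 21 and 26 also when a match in all 3 replicate lists was required. In the replicate lists, 6 to 7 genes had a promoter summit in both lists left after leaving out each replicate in turn. Under other match distances, the nearest summit and scaling to list medians, all 36 mean signals stayed within 1 SD. The mean of the peak counted for Mcm6, 32.4, rested on 2 replicates and was 19.8 without replicate 1 and 45.1 without replicate 2. No paired analysis was possible because all samples form 1 group. The main limits are the unknown depth, the authors' signal of unstated scaling, background in the lists of 30000 peaks, and the small set of 9 genes. Some starts also lie too close together for a peak to be given to 1 gene.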
